A study of Homo sapiens with 4 samples.

Results

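In wild-type HAP1 cells, 1552 of 70595 CTCF peaks on chromosomes 1 to 22 and X overlapped a cohesin (SCC1) peak and had no overlapping CTCF peak in cells with mutated CTCF. They are called wild-type-only CTCF peaks with SCC1, or members, here. They were chosen from the peak lists alone: a wild-type CTCF peak had to share no base with any mutant CTCF peak and at least 1 bp with a wild-type SCC1 peak. They made up 32.4% (95% Wilson interval 31.1 to 33.7%) of the 4791 wild-type-only CTCF peaks. They were 3.90% (3.72 to 4.10%) of the 39756 wild-type CTCF peaks with wild-type SCC1. Over all wild-type CTCF peaks, 6.79% had no mutant CTCF peak and 56.3% had wild-type SCC1. These shares follow from the selection rule and are descriptions.

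CTCF is a zinc finger protein that binds a directional DNA motif. Cohesin is a ring complex that extrudes chromatin loops and tends to stop at bound CTCF, so that its subunit SCC1 (also named RAD21) is found at CTCF sites. The N-terminal part of CTCF contacts cohesin through residues that include the tyrosine and phenylalanine mutated here. CTCF generally binds without the help of cohesin, whereas cohesin positions depend on CTCF.

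HAP1 cells are a nearly haploid human line of chronic myeloid leukaemia origin. Chromatin immunoprecipitation with sequencing (ChIP-seq) was done with an antibody to CTCF and with one to SCC1, each in wild-type cells and in cells with CTCF Y226A, F228A. Both substitutions were written into the genome by Cas9 cutting and a 120-base repair oligonucleotide, and clones were picked after puromycin selection and sequenced; how many clones the mutant libraries represent is not given in the labels. The wild-type cells carry neither substitution, and no other treatment separates the genotypes in the labels. The labels name an SCC1 antibody while the extraction text names SMC1, another cohesin subunit.

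Each antibody and genotype had 1 list, labelled replicate 1, so differences between genotypes lack a replicate check and carry no p-value. Peak names in both CTCF lists carry the number 2 after the genotype, and its meaning is not stated there or in the labels. The intervals below describe counting error across peaks, which are not independent of their neighbours. The lists held 70595 (wild type) and 82575 (mutant) CTCF peaks, and 51931 and 47412 SCC1 peaks. Read totals are not in the lists. A proxy for depth is the lowest background of each list, expressed as fragments expected at a position, which was 3.50 (wild type) and 3.38 (mutant) for CTCF and 3.27 and 3.14 for SCC1. Summit fragments, the number of fragments that cover the highest point of a peak, were recovered from the authors' fold enrichment and p-value. Fold enrichment is the authors' value for that peak against its own library's background, and it is compared only within a list.

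Wild-type-only CTCF peaks with SCC1 were on the whole weak to middling calls of the wild-type CTCF list, with a strong minority. Their median fold enrichment was 6.70 (quartiles 4.67 and 10.4, range 1.55 to 25.4), and the median percentile in the list was 32.7. CTCF peaks called in both genotypes and with wild-type SCC1 (38204 peaks) had a median of 18.2-fold (12.3 and 22.5). Wild-type-only CTCF peaks without SCC1 (3239 peaks) had a median of 4.23-fold (3.78 and 4.89). The 1552 peaks thus lay between these classes. Of them 453 were under 5-fold, 1099 were 5-fold or more, 417 were 10-fold or more, 124 were 15-fold or more and 25 were 20-fold or more.

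The same order was seen in fragments at the summit. The median was 33 fragments (quartiles 22 and 57, highest 299) at wild-type-only CTCF peaks with SCC1. It was 19 without SCC1, and 167 at peaks called in both genotypes with SCC1. The highest count of members, 299, was at the member of lowest fold (1.55), where the local background was 193. In the mutant CTCF list the weakest 5% of peaks had at most 17 fragments. Among members, 160 (10.3%) had no more than that in wild type, and 476 (30.7%) had at least 3 times as many. In 346 (22.3%) the wild-type count reached or passed 62 fragments, the median of the mutant list. By count, which takes no account of local background, the group held peaks near the weakest mutant calls and peaks far above them.

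SCC1 was more frequent at stronger wild-type-only CTCF peaks. It was found at 15.2% (14.0 to 16.6%) of wild-type-only CTCF peaks under 5-fold and at 41.9% (38.9 to 44.9%) of those from 5-fold to 7.5-fold. From 7.5-fold to 10-fold it was 72.6% (67.6 to 77.04%). From 10-fold to 15-fold it was 93.02% (89.7 to 95.3%), and from 15-fold to 20-fold it was 99 of 100 peaks. All 25 wild-type-only peaks of 20-fold or more had SCC1. Shared peaks showed a rise too, but it came later in the range of fold. Of shared CTCF peaks under 5-fold, 2123 had wild-type SCC1 and 8768 did not. The counts were 2416 and 8526 from 5-fold to 7.5-fold, and 2326 and 4422 from 7.5-fold to 10-fold. They were 6716 and 4049 from 10-fold to 15-fold, and 8949 and 1421 from 15-fold to 20-fold. At 20-fold or more they were 15674 and 414. From 7.5-fold to 10-fold most wild-type-only peaks thus had SCC1 (246 with, 93 without), while most shared peaks did not. Under 5-fold most peaks of both kinds lacked it. Seen from the other side, wild-type-only peaks became rarer among CTCF peaks with SCC1 as strength rose: 17.6% (16.2 to 19.1%) under 5-fold, 4.18% (3.74 to 4.67%) from 10-fold to 15-fold and 0.159% (0.108 to 0.235%) at 20-fold or more.

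Their SCC1 peaks were of middle rank in the wild-type SCC1 list. The median SCC1 fold enrichment was 4.91 (quartiles 4.09 and 6.35), at a median percentile of 41.6, with a median of 26.5 summit fragments. Stronger CTCF went with stronger SCC1: the Spearman correlation of both fold enrichments over the 1552 peaks was 0.65, and 0.73 over the 38204 peaks called in both genotypes. These are descriptions across sites of the same libraries, which share chromatin accessibility and copy number. At CTCF peaks of like strength, the median SCC1 fold was higher at wild-type-only peaks than at peaks called in both genotypes in each of the 5 ranges under 20-fold. From 10-fold to 15-fold CTCF, the median SCC1 fold was 6.43 (quartiles 5.38 and 7.80) at wild-type-only peaks and 5.52 (4.45 and 7.01) at shared ones. From 7.5-fold to 10-fold it was 5.39 and 4.54. At 20-fold or more it was 10.01 (25 peaks) and 10.2. At equal CTCF summit fragments the medians were 6.10 and 4.99 with 50 to 79 fragments, 4.01 and 4.02 with under 20, and 8.48 and 9.07 with 120 or more, so the direction changed at both ends. The quartile ranges overlapped in the 10-fold to 15-fold range.

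**Figure D1:**
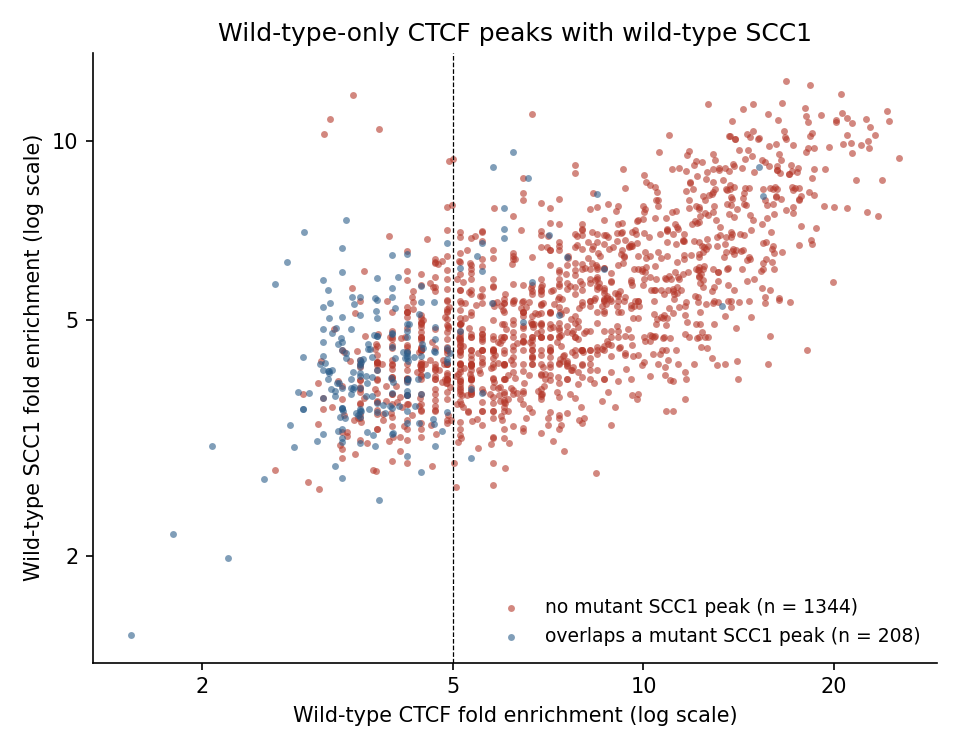
Wild-type CTCF fold enrichment (x, log scale) against wild-type SCC1 fold enrichment (y, log scale) for the 1552 members, red without and blue with an overlapping mutant SCC1 peak; the dashed line marks 5-fold. The 208 blue points crowd to the left of the line, where 183 of them lie.

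The 10 strongest members ranged from 22.6-fold to 25.4-fold in CTCF, and none overlapped a mutant SCC1 peak. The highest lay at chr6:163602186-163602584 (hg19, as all positions here), with 212 CTCF and 90 SCC1 summit fragments in wild type. Its nearest mutant peaks were 10.4 kb away for both CTCF and SCC1. The peak at chr6:64722129-64722516 had 177 CTCF and 77 SCC1 fragments, with mutant CTCF 8.36 kb and mutant SCC1 88.7 kb away. In both places mutant CTCF was thus still called close by.

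Another 3 of the 10 stood in wider stretches without mutant calls. At chr10:37552227-37552751 (198 CTCF and 57 SCC1 fragments) the nearest mutant CTCF peak was 232 kb and the nearest mutant SCC1 peak 363 kb away. At chr9:137977890-137978246 (165 and 31 fragments) these distances were 120.1 kb and 326 kb. At chr10:37068183-37068546 (139 and 64 fragments) they were 101.3 kb and 120.4 kb. The remaining sites had mutant CTCF peaks at 8.40 kb (chr3:124714257-124714637), 19.4 kb (chr8:58487768-58488156), 29.1 kb (chrX:29108944-29109381), 37.3 kb (chr12:95730223-95730641) and 158.4 kb (chrX:94760665-94761011). The nearest mutant SCC1 peaks of these 5 sites, in the same order, were 7.46 kb, 10.4 kb, 15.9 kb, 74.5 kb and 5.10 kb away. In all 10 the SCC1 summit was 1 to 63 bp from the CTCF summit. No gene is assigned to these peaks because an hg19 annotation was not used here, and for the same reason no sequence is shown.

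The strongest SCC1 peaks in the group were found mostly at strong CTCF. The highest was 12.6-fold at chr11:134903465-134903850, where CTCF was 16.8-fold and the nearest mutant SCC1 peak was 5.68 kb away. Next came 12.4-fold SCC1 at chr7:144210431-144210804 (CTCF 18.4-fold), where a mutant CTCF peak lay 1.37 kb away. It was followed by 11.99-fold at chr18:28469852-28470259 (CTCF 20.5-fold) and 11.6-fold at chr2:187645678-187646061 (CTCF 16.6-fold). The fourth highest, at chr19:35844245-35844462, was of another kind. Its CTCF was 3.47-fold with 34 fragments, the 11.9-fold SCC1 summit was 507 bp away, and a mutant CTCF peak lay 128 bp from its edge.

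Mutant SCC1, which the selection did not use, was found at few of these sites. Of the 1552 peaks, 208 overlapped a mutant SCC1 peak, or 13.4% (11.8 to 15.2%). Over all wild-type CTCF peaks 42.0% did, and over those with wild-type SCC1 70.2%. The share was 72.5% (72.04 to 72.9%) at CTCF peaks called in both genotypes with wild-type SCC1, and 2.62% (2.13 to 3.23%) at wild-type-only CTCF peaks without it. The intervals of the 3 classes do not overlap. With the longer list of each antibody shortened to the length of the other, the rule found 2180 peaks, of which 26.4% had mutant SCC1. With the CTCF lists alone made equal it found 2364 peaks and 27.2%, and with the SCC1 lists alone 1455 peaks and 12.99%.

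The share depended on CTCF strength. Under 5-fold, 183 of 453 peaks overlapped mutant SCC1, or 40.4% (36.0 to 45.0%). At 5-fold or more, 25 of 1099 did, or 2.27% (1.55 to 3.34%). At 10-fold or more, 3 of 417 did, or 0.719% (0.245 to 2.09%). Among shared CTCF peaks with wild-type SCC1 the corresponding shares were 76.4%, 72.3% and 75.2%. These pooled ranges hide a fall and a rise. The shared share was 57.4% from 5-fold to 7.5-fold and 47.5% from 7.5-fold to 10-fold. It was 69.7% from 15-fold to 20-fold and 87.2% at 20-fold or more. In the range from 10-fold to 15-fold, mutant SCC1 was at 1 of 293 wild-type-only peaks (0.341%, 0.0603 to 1.91%), at 54.7% (53.5 to 55.9%) of shared peaks with wild-type SCC1, and at 6.94% (6.20 to 7.76%) of shared peaks without it. For the 25 peaks of 20-fold or more the count was 0, which allows a share of up to 12% when 3 counts are taken as the limit (Wilson upper limit 13.3%). For peaks of 5-fold or more the share was 6.18% with lists of equal length and 5.47% under a rule of summits at most 200 bp apart, an overlap rule that also changed which CTCF peaks counted as wild-type-only.

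**Figure D2:**
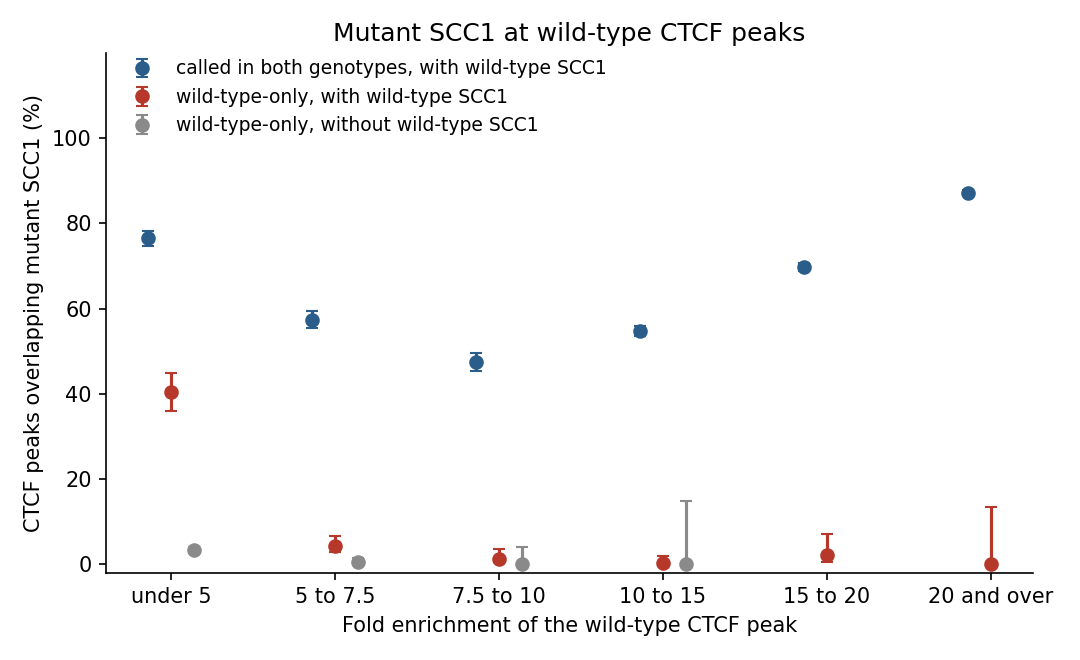
Share of wild-type CTCF peaks that overlap a mutant SCC1 peak (y, percent) by the fold enrichment of the wild-type CTCF peak (x), for 3 classes of CTCF peak; points are shares, bars 95% Wilson intervals, and classes with fewer than 20 peaks in a range are left out. Wild-type-only peaks with SCC1 stand at 40.4% under 5-fold and at 4.36% or less above it, while shared peaks stay between 47.5% and 87.2%.

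Binning by CTCF summit fragments gave the same form. With under 20 fragments 48.5% (42.6 to 54.5%) of 268 peaks overlapped mutant SCC1, with 20 to 29 fragments 14.7% (11.6 to 18.6%) of 394, with 30 to 49 fragments 3.23% (1.89 to 5.44%) of 403 and with 80 to 119 fragments 0 of 133, which allows up to 2.26% by the same limit of 3 counts (Wilson upper limit 2.81%). At 120 fragments or more, 3 of 62 did. Shared peaks with wild-type SCC1 also fell at first, to a lesser depth. Their shares were 78.2% with under 20 fragments, 65.4% with 20 to 29, 49.3% with 30 to 49 and 42.4% with 50 to 79. They then rose to 52.3% with 80 to 119 and 83.4% with 120 or more. SCC1 strength was looked at among the weak members, so the shares are not set against those by CTCF fragments over all members. Under 5-fold CTCF, mutant SCC1 was found at 41.7% (35.1 to 48.5%) of peaks with SCC1 under 4-fold, at 40.7% (33.5 to 48.4%) from 4-fold to 5-fold and at 36.8% (27.4 to 47.3%) at 5-fold or more. These intervals overlap.

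The weak members that kept SCC1 differed in shape from those that did not. Under 5-fold, the 183 with mutant SCC1 lay in wild-type SCC1 peaks with a median width of 697 bp (quartiles 495 and 942), and the 270 without in peaks of 414 bp (346 and 498). The SCC1 summit was a median of 152 bp (58.5 and 309) from the CTCF summit in the former and 50 bp (22.3 and 102) in the latter. Mutant SCC1 was found at 21.6% (16.2 to 28.2%) of weak members whose wild-type summits were within 50 bp, at 40% (32.9 to 47.5%) of those 51 to 200 bp apart, and at 71.96% (62.8 to 79.6%) of those further apart. Overlap with mutant SCC1 was scored on the CTCF interval, so the width of the wild-type SCC1 peak did not enter it. The median CTCF width was 203 bp at the 183 weak members with mutant SCC1 and 208 bp at the 270 without. The part of mutant SCC1 width in these shares was not tested.

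Where mutant SCC1 was present, its height can be set beside that in wild type. At the 183 weak members the SCC1 summit had a median of 26 fragments (quartiles 21 and 35) in wild type, against 28 (22.5 and 38) in the mutant, and the mutant summit lay a median of 167 bp from the wild-type CTCF summit. At the 25 members of 5-fold or more it had 40 fragments (32 and 50) in wild type, against 24 (18 and 28) in the mutant. There the SCC1 summit was 42 bp (18 and 63) from the CTCF summit in wild type, against 154 bp (62 and 319) in the mutant. The change in height was not particular to members. At shared CTCF peaks with SCC1 in each genotype it went from 62 to 31 fragments at 5-fold or more (26071 peaks) and from 29 to 31 under 5-fold (1623 peaks). Over all SCC1 peaks the median summit was 34 fragments for wild type against 26 for the mutant. The distance at those strong shared peaks was 26 bp (13 and 45) for wild type against 30 bp (14 and 59) for the mutant. Of the 25 members, 19 were from 5-fold to 7.5-fold, so weaker shared peaks are nearer in strength. At the 6163 such shared peaks from 5-fold to 15-fold, the height went from 36 to 27 fragments. Their distance was 38 bp (17 and 94) for wild type against 52 bp (21 and 130) for the mutant. Of these 6163 peaks 3672 were from 10-fold to 15-fold, as was 1 of the 25 members, so strength was not matched. The fragment counts were not scaled, and the SCC1 background was 3.27 for wild type against 3.14 for the mutant.

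The 3 members of 10-fold or more with mutant SCC1 were of different kinds. At chr13:43457977-43458317 (CTCF 15.5-fold) SCC1 had 41 fragments in wild type against 13 in the mutant, and its summit moved from 35 bp to 168 bp from the CTCF summit. At chr2:21398507-21399056 (15.3-fold) the counts were 52 and 17, with the summit at 3 bp and 15 bp. At chr7:51734574-51734937 (13.3-fold) they were 36 and 34, and the mutant summit was 683 bp from the CTCF position against 42 bp in wild type. The last was thus a peak of nearly the same height whose mutant summit lay outside the CTCF interval of 364 bp that it overlapped.

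SCC1 sat close to the CTCF summit at members, and closer at strong than at weak ones. In wild type the summits were a median of 35 bp apart (quartiles 16 and 72) over all 1552 members and 28 bp (13 and 50) at shared CTCF peaks with SCC1. Shared peaks included far more strong ones, so shares were compared within ranges of CTCF fold. Summits within 50 bp were found at 38.9% of members and 27.7% of shared peaks under 5-fold, at 65.8% and 45.4% from 5-fold to 7.5-fold, at 74.4% and 59.1% from 7.5-fold to 10-fold and at 79.9% and 72.4% from 10-fold to 15-fold. From 15-fold to 20-fold the shares were 84.8% and 78.98%, and at 20-fold or more they were 80% of 25 members and 87.9% of shared peaks. Members were thus ahead in the 5 ranges under 20-fold, while over all peaks of 5-fold or more they were behind, at 73.5% (70.8 to 76.04%) against 78.1% (77.7 to 78.5%). Summits over 200 bp apart were found at 107 of the 453 weak members (23.6%) and at 13 of the 1099 others (1.18%). At shared peaks with SCC1 the shares were higher, 33.0% under 5-fold and 3.14% at 5-fold or more.

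**Figure D3:**
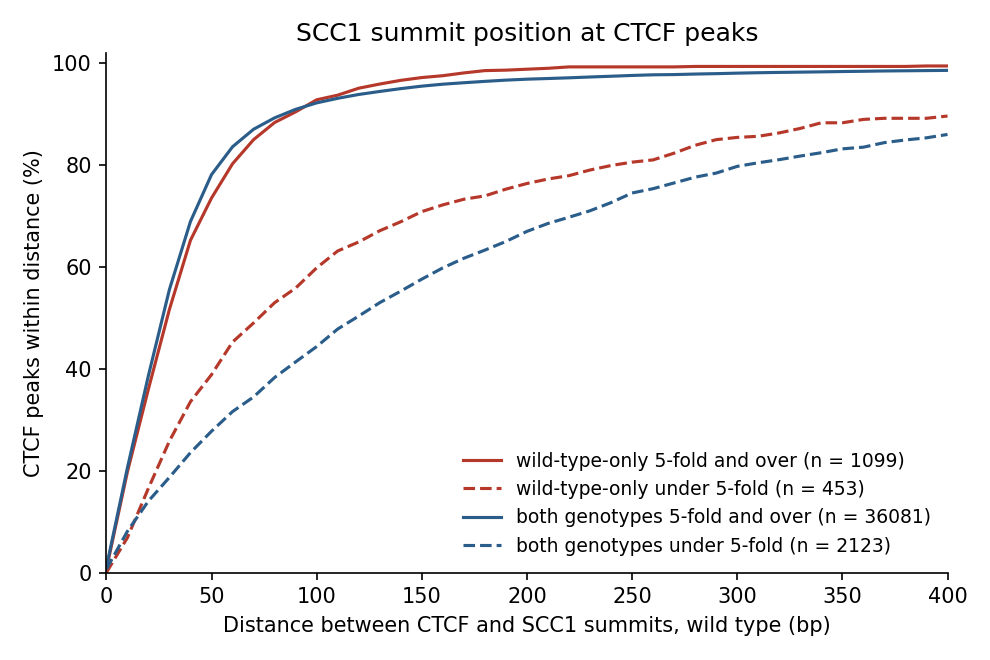
Cumulative share of CTCF peaks (y, percent) whose nearest wild-type SCC1 summit lies within a given distance of the CTCF summit (x, bp), for wild-type-only peaks (red) and peaks called in both genotypes (blue), at 5-fold or more (solid) and under 5-fold (dashed). Solid lines reach 73.5% and 78.1% at 50 bp, dashed lines 38.9% and 27.7%; peaks of 5-fold or more are pooled, and the shared ones include more strong peaks.

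Nearly every member had an SCC1 peak of its own. In 1242 (80.03%) the CTCF interval lay wholly inside the SCC1 interval, and 2 members overlapped more than 1 SCC1 peak. The SCC1 peak of 42 members (2.71%, 2.01 to 3.64%) also covered a CTCF peak called in both genotypes. Of these 42, 37 were under 5-fold, the median summit distance was 471 bp, and 27 (64.3%, 49.2 to 77.01%) overlapped mutant SCC1. Among the other 1510 it was 11.99% (10.4 to 13.7%), and 37.7% among those under 5-fold. Counted as SCC1 peaks, 234 of the 1549 distinct wild-type SCC1 peaks at members overlapped a mutant SCC1 peak anywhere along their length (15.1%, 13.4 to 16.98%), against 71.8% over all wild-type SCC1 peaks.

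Mutant CTCF was present in the neighbourhood of most members. The median distance to the nearest mutant CTCF peak was 11920.5 bp (quartiles 4038.5 and 29032.8 bp). It lay within 1000 bp of 166 members (10.7%), within 10 kb of 702 (45.2%) and within 50 kb of 1376 (88.7%). At wild-type-only CTCF peaks without SCC1 these shares were 8.74%, 48.1% and 90.3%, so nearby mutant CTCF was not particular to members. Weak members had closer mutant CTCF: 26.3% of those under 5-fold and 4.19% of the others had one within 1 kb without overlap. The nearest mutant SCC1 peak was 0 bp away, within 1 kb or at 1 to 10 kb in 40.4%, 9.05% and 13.5% of weak members, and in 2.27%, 2.73% and 24.5% of the others.

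**Figure D4:**
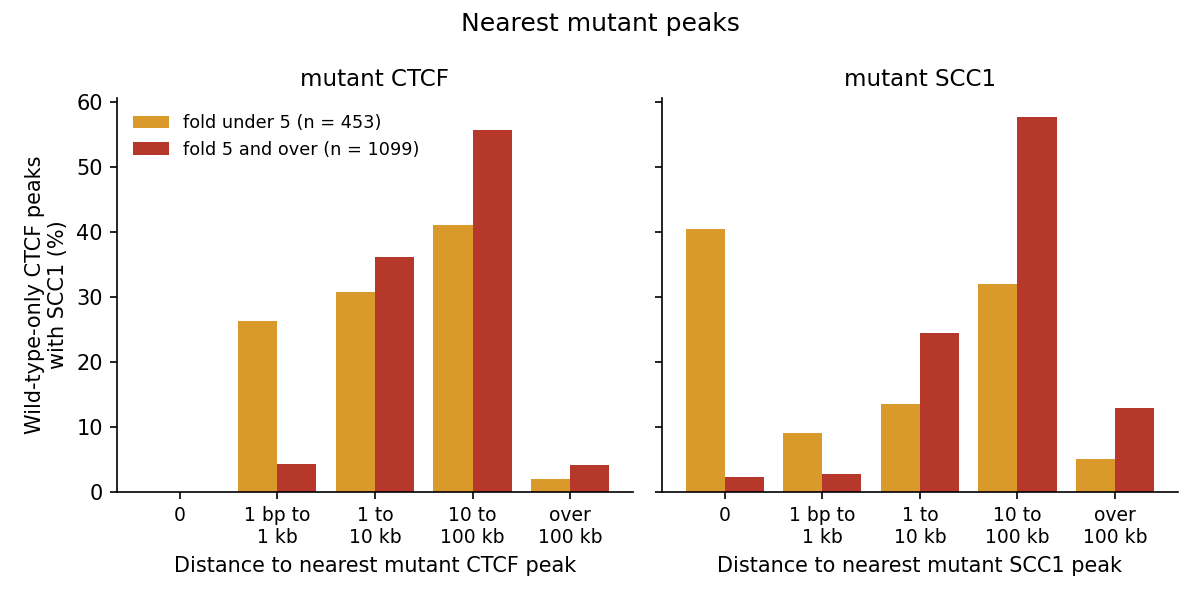
Distance from each wild-type-only CTCF peak with SCC1 to the nearest mutant CTCF peak (left) and mutant SCC1 peak (right), in 5 classes (x), as a share of the members under 5-fold (yellow) and of 5-fold or more (red) (y, percent). No member has a mutant CTCF peak at 0 by the rule, and the 0 class of SCC1 holds 40.4% of the weak and 2.27% of the other members.

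The spacing of CTCF peaks around members depended on how strength was matched. At equal fold enrichment members stood in sparser surroundings than shared peaks. From 10-fold to 15-fold, the nearest other wild-type CTCF summit was a median of 17777 bp away at members and 5802 bp at shared peaks with SCC1, and from 15-fold to 20-fold 17951 bp and 9817 bp. The local background followed. In the 10-fold to 15-fold range its median was 4.08 fragments at members and 5.68 at shared peaks, and 16.4% and 4.32% respectively stood at the genome-wide value (within 1%). At equal summit fragments the difference was smaller and turned over at high counts: the medians were 13766 bp and 10616 bp with 30 to 49 fragments, 11704 bp and 12371 bp with 80 to 119, and 4347.5 bp and 10168 bp with 120 or more. No order of spacing is read from these values.

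CTCF peaks on either side of a member were mostly still called in the mutant. Of 3102 next CTCF peaks along the chromosome, 51.8% were shared with wild-type SCC1, 37.2% shared without it, 6.93% wild-type-only without SCC1 and 4.06% (3.42 to 4.82%) were members. Over all wild-type CTCF peaks these classes made up 54.1%, 39.1%, 4.59% and 2.20%. Shared peaks were thus 89.01% (87.9 to 90.1%) of the neighbours of members and 93.2% of all wild-type CTCF peaks. In all 1430 members had no other member next to them, while 110 stood in 55 pairs and 12 in 4 runs of 3, so that 122 (7.86%, 6.62 to 9.31%) had a member next to them.

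The 5 longest runs by number of members, with ties ordered by summed fold, were the 4 runs of 3 and 1 of the 55 pairs, and covered 54.1 to 188 kb. A run on chromosome 10 from 37535632 to 37723394 (188 kb) held 3 members of 6.89-fold, 23.9-fold and 12.01-fold, with 3 SCC1 peaks in wild type and no mutant peak of either protein. The pair, close by, from 37014452 to 37068546, held members of 6.45-fold and 22.8-fold and no mutant peak either. Runs of 3 were also found on chromosome 3 from 78215071 to 78270764 (4.89-fold to 10.6-fold), on chromosome 1 from 189662385 to 189738751 (4.45-fold to 7.78-fold) and on chromosome 3 from 28840675 to 28957882 (3.86-fold to 5.30-fold). Mutant CTCF had 1 peak in the last of these spans and 0 in the other two, and mutant SCC1 had 1 peak in the first chromosome 3 span and 0 in the others. None of the members in these 5 runs overlapped mutant SCC1.

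Members were found on all 23 chromosomes, from 12 on chromosome 22 to 140 on chromosome 2. As a share of CTCF peaks with wild-type SCC1, they were most frequent on chromosomes 13 (7.17%, 5.73 to 8.94%), X (6.58%, 5.52 to 7.83%) and 21 (6.28%, 4.22 to 9.25%). They were least frequent on chromosomes 19 (1.04%, 0.623 to 1.74%) and 22 (1.71%, 0.983 to 2.97%). The order was similar for strong peaks. At 10-fold or more, chromosome 13 had 3.03% (2.04 to 4.47%), X 2.63% (1.91 to 3.60%) and 21 2.35% (1.14 to 4.77%), and chromosome 19 had 0.271% (0.0922 to 0.794%). The whole interval lay above 3.90%, the value over all chromosomes, on 6 chromosomes and below it on 7. CTCF peaks were closest together on chromosome 19, with a median of 7131 bp to the nearest other summit, against 14217.5 bp on chromosome 13, 12917 bp on X and 11365 bp on 21. Spacing and share did not go together throughout: chromosome 18 had the widest spacing at 15806 bp, with a share of 3.23% (2.23 to 4.65%).

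**Figure D5:**
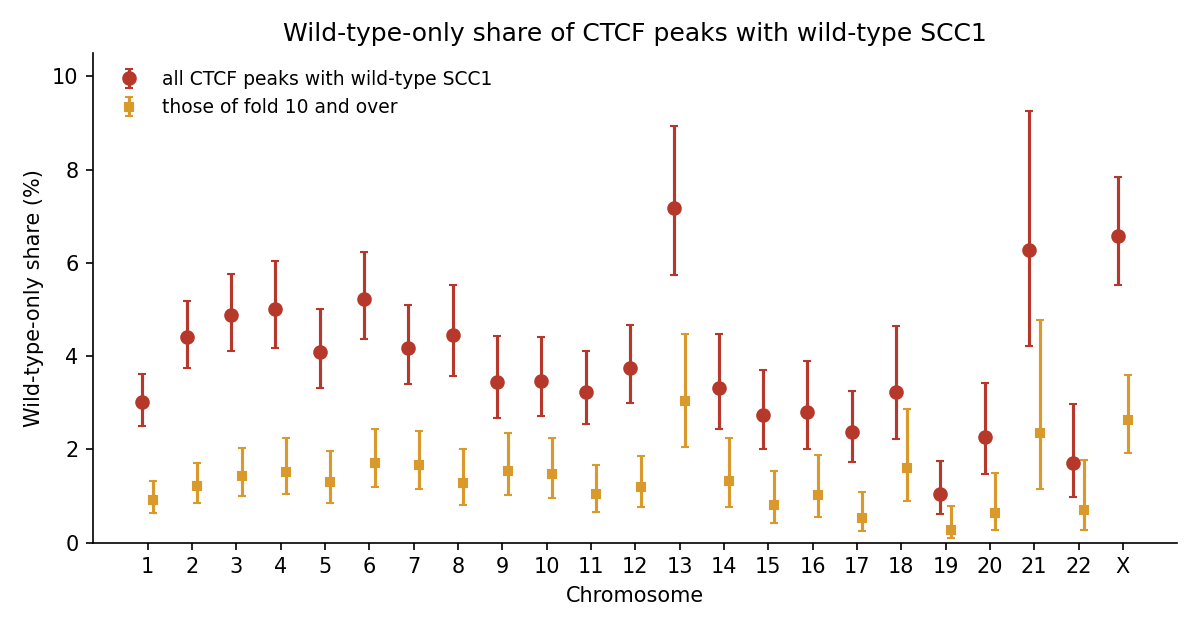
Share of wild-type CTCF peaks with wild-type SCC1 that have no mutant CTCF peak (y, percent) on each chromosome (x), for all such peaks (red circles) and those of 10-fold or more (yellow squares), with 95% Wilson intervals. Chromosomes 13, X and 21 are highest at 7.17%, 6.58% and 6.28%, and chromosome 19 is lowest at 1.04%.

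Mutant SCC1 was at a minority of members on every chromosome, from 3.70% (1 of 27) on chromosome 18 to 31.6% (12 of 38) on chromosome 17. On a finer scale, 524 of 592 regions of 5 Mb with at least 10 CTCF peaks with wild-type SCC1 held at least 1 member, and the median region held 2. The highest shares were in 60 to 65 Mb of chromosome 4 (6 of 25), 55 to 60 Mb (5 of 24) and 90 to 95 Mb (8 of 40) of chromosome 13, 35 to 40 Mb of chromosome 10 (10 of 56) and 25 to 30 Mb of X (7 of 40). In each of these most CTCF peaks with SCC1 were still called in the mutant. The intervals are wide, from 11.5 to 43.4% in the first, and these regions were picked for their high values.

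Few members rested on the last base of the rule. The smallest overlaps with SCC1 were 1 bp at chr6:21753671-21753864, 3 bp at chr12:53774762-53774947 and 3 bp at chr7:61247223-61247406, with CTCF of 3.34-fold, 3.65-fold and 4.16-fold. Just outside, chr11:776682-776903, chrX:61881772-61881961 and chr1:68962614-68962789 touched an SCC1 peak without sharing a base (4.19-fold, 3.62-fold and 3.61-fold). The closest mutant CTCF peaks to members lay 5 bp from chr3:110790690-110790881 (3.47-fold), 15 bp from chr6:170893579-170893754 (3.45-fold) and 21 bp from chr2:28847933-28848108 (4.00-fold). On the other side of that limit, chr10:95654004-95654300 (3.70-fold) overlapped mutant CTCF by 12 bp, chr1:171810707-171810882 (4.00-fold) by 27 bp and chr15:40733656-40733864 (3.63-fold) by 32 bp. All of these borderline peaks were under 5-fold.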

How the data were processed

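Values come from 4 deposited narrowPeak lists, 1 per antibody and genotype. They are on hg19 and were made with Trim Galore and MACS2, per the submitters' processing notes. The settings of the peak caller, the read aligner and the use of an input library were not given in the sources used here. Every list holds, as the authors deposited it, a fold enrichment (a ratio over the local background of that library), a −log10 p and a −log10 q per peak. Cells were fixed in 1% formaldehyde and chromatin sheared to 400 to 800 bp, per the labels' protocols.

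Overlap means at least 1 shared bp. Summit fragments and background were solved jointly from fold and −log10 p, assuming that 1 is added to each before division and a Poisson tail. Solved counts were whole within 0.01 except in 1 wild-type and 5 mutant CTCF peaks. The SCC1 peak of a CTCF peak is the overlapping one with the nearest summit. A distance between peaks runs from edge to edge. The scripts ran under Python 3.11.15 with scipy 1.17.1 (intervals, solving), pandas 2.3.3, numpy 2.4.6 and, for plots, matplotlib 3.10.9. Overlaps and distances, checked against bedtools 2.31.1 on 3000 simulated intervals, showed 0 differences.

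Members, lists and named regions were chosen with earlier results of these data known. Named are the 10 members of highest CTCF fold, the 5 of highest SCC1 fold, those of 10-fold or more with mutant SCC1, the 5 longest runs, the 3 peaks on each side of both limits, and the 5 regions of 5 Mb with the highest shares. The fold and count ranges were set after the data were seen.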

Additional observations from a re-analysis of the deposited data

Results flagged for a closer look

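Wild-type-only CTCF peaks with SCC1 also occurred outside chromosomes 1 to 22 and X, which the comparisons above did not use. There were 14, or 3.47% of the 403 CTCF peaks with wild-type SCC1 found there, and 6 of them lay on alternate haplotype contigs. Their CTCF fold enrichment ranged from 1.36 to 18.7, and 2 overlapped mutant SCC1. How reads matching several contigs were placed was not tested.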

How the results depend on the processing

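No paired analysis was possible because there was 1 library for each antibody in each genotype. Of 110 values under alternatives, 66 stayed within the interval of the reported value, or within 1.5 times it for the number of members, and 44 did not. Members had mutant SCC1 less often than shared CTCF peaks with wild-type SCC1 in 14 of 14 settings, the reported one included. They had it more often than wild-type-only CTCF peaks without SCC1 in 13 of 14. The exception was members of 5-fold or more (2.27%), set against all such peaks (2.62%). Among such peaks of 5-fold or more, 3 of 721 had it (0.416%). Some settings filtered the members alone and set them against the reported shares of the other classes. These filtered by 5-fold CTCF, by an SCC1 peak with no shared CTCF peak, by chromosomes X and 13, or by background. The settings that made the lists of 1 antibody alone equal in length, kept members of 5-fold or more, counted mutant SCC1 within 1000 bp, left out chromosomes X and 13 or dropped members in high background are later additions, chosen after seeing the data. The lowest 5% of wild-type and of mutant CTCF peaks had at most 17 summit fragments, and the part of depth in which faint peaks were called was not tested.

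With summits within 200 bp, 30.05% of wild-type-only CTCF peaks had wild-type SCC1, mutant SCC1 was at 10.8% of members (5.47% at 5-fold or more), 3.81% of wild-type-only peaks without SCC1 and 69.3% of shared peaks with SCC1, and the median CTCF fold of members was 7.11. With lists of equal length these were 27.9%, 26.4% (6.18%), 5.33%, 73.6% and 6.18, the median summit distance was 40 bp, and 10.1% of members were next to another. With the CTCF lists alone of equal length there were 2364 members, which were 30.3% of wild-type-only CTCF peaks, mutant SCC1 was at 27.2% (6.22%) of members and 4.28% of wild-type-only peaks without SCC1, the median CTCF and SCC1 folds were 5.79 and 4.68, the summit distance was 42 bp, and 10.4% of members were next to another. With the SCC1 lists alone of equal length, 30.4% of wild-type-only CTCF peaks had wild-type SCC1, mutant SCC1 was at 73.2% of shared peaks, and the median SCC1 fold was 5.09. With no mutant CTCF peak allowed within 1000 bp, mutant SCC1 was at 9.16% of members and 1.89% of wild-type-only peaks without SCC1, and the median CTCF fold was 7.12. With a −log10 q of at least 5, mutant SCC1 was at 9.54%, 1.44% and 67.4% of members, wild-type-only peaks without SCC1 and shared peaks, the median CTCF and SCC1 folds were 7.41 and 5.32, and the summit distance was 32 bp. With an overlap of 50% of the narrower peak the share at shared peaks was 71.8%. Mutant SCC1 within 1000 bp was found at 17.98% of members (5.005% at 5-fold or more), 7.22% of wild-type-only peaks without SCC1 and 74.5% of shared peaks. Members of 5-fold or more had mutant SCC1 in 2.27%, a median SCC1 fold of 5.42, a summit distance of 30 bp, and 6.28% were next to another. Apart from the lists of equal length and the stricter or looser overlap rules, whose construction changes which peaks have a partner, the cause was not tested.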

Other observations

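Mutant-only peaks were counted near members and near the other 3 classes of wild-type CTCF peak. A mutant-only CTCF peak lay within 10 kb of 14.2% (12.6 to 16.1%) of wild-type-only CTCF peaks with SCC1, 14.1% (12.98 to 15.4%) of those without SCC1, 14.2% (13.9 to 14.6%) of shared CTCF peaks with SCC1 and 14.6% (14.2 to 15.05%) of shared CTCF peaks without it. A mutant-only SCC1 peak lay within 10 kb of 7.93% (6.68 to 9.38%), 10.6% (9.61 to 11.7%), 9.14% (8.86 to 9.43%) and 14.6% (14.2 to 14.997%) of these classes. Of the 1344 members without mutant SCC1, 29.9% (27.5 to 32.4%) had a mutant SCC1 peak within 10 kb, against 38.5% (37.5 to 39.4%) of the 10510 shared CTCF peaks that had SCC1 in wild type alone.

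A local CTCF background of more than 3 times the genome-wide value was found at 63 members (4.06%) and at 21.7% of shared CTCF peaks with SCC1. Of these 63 members 22 were under 5-fold, and 7 overlapped mutant SCC1.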
